A study of Mus musculus with 12 samples.

Results

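Lysosomal hydrolases and membrane proteins, cathepsins left out, were followed in cultured cerebellar granule neurons (CGNs) of mice that carry or lack Ifnb, the gene of interferon-β. The list held 44 genes, chosen by function from known lysosomal enzymes, transporters and membrane glycoproteins plus Tfeb. Of these, 43 were measured among 18193 genes of the series, and Cd63, a lysosomal tetraspanin, was not analysed here. Each gene was read from the probe set that names it alone and had the highest mean over all 12 arrays. Levels below are log2 intensities of that probe set, and differences are log2 fold changes.

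All groups were CGNs of the B10.RIII strain, taken from cerebella of 7-day-old pups and kept for 3 days in culture, with 3 arrays in each group. The untreated Ifnb+/+ group stands for wild-type neurons, for which the study's methods also allow Ifnb+/- littermates, and the untreated Ifnb-/- group lacks Ifnb in every cell. The other groups, Ifnb+/+ +IFN-b and Ifnb-/- +IFN-b, received recombinant interferon-β (rIFN-β) at 100 U/ml for the last 24 hours. The methods state cultures in triplicate and do not say from how many litters. A p-value here therefore sets a difference against the scatter of these cultures, and that scatter may be technical.

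Lysosomal hydrolases break down glycans, lipids, proteins and nucleic acids in an acidic lumen, and heavily glycosylated proteins line the membrane around them. Loss of single hydrolases causes storage diseases, many of which damage neurons, and Purkinje and granule cells of the cerebellum are among those affected. TFEB, a transcription factor held in the cytoplasm by TORC1 at the lysosome, raises many of these genes together through a short palindromic E-box in their promoters, known as the CLEAR element. Phagocytes such as microglia hold large amounts of several of the same enzymes.

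The 43 measured genes were 12 glycosidases (Gusb, Gla, Hexa, Gaa, Glb1, Galc, Neu1, Man2b1, Manba, Fuca1, Naglu and Idua), 6 genes of sulfate removal and acetylation in glycan breakdown (Sgsh, Ids, Galns, Arsa, Arsb and Hgsnat), 9 lipid hydrolases, activator proteins and sterol carriers (Asah1, Smpd1, Psap, Gm2a, Lipa, Ppt1, Pla2g15, Npc1 and Npc2), 5 peptidases, phosphatases and a nuclease (Lgmn, Tpp1, Acp2, Acp5 and Dnase2a), 5 membrane proteins without a transport role here (Lamp1, Lamp2, Scarb2, Laptm4a and Laptm4b), 5 transporters and channels (Mcoln1, Cln3, Ctns, Slc17a5 and Slc11a1), and Tfeb.

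The E-box core, CACGTG, is shown because it is the sequence that TFEB is known to bind. RefSeq promoter windows (GRCm38.p6), which run from 250 bases before to 50 bases after a transcription start, existed for 38 of the 43 measured genes. CACGTG, which reads the same on both strands, lay in the windows of 10 of the 38 (26.3%), against 8.09% of the 27025 genes with a window. The longer form TCACGTGA, which contains the core, lay in 3 of them (7.89%) against 1.12% of all genes. GAAANNGAA, a core of the interferon-stimulated response element, lay in 4 (10.5%) against 9.76% of all genes, and TTCNNNGAA, a core of the gamma-activated site, in 3 (7.89%) against 9.55%, both strands read. The stretches below show every E-box core of a window in capitals with 30 bases on each side, or up to the window's edge, for 3 genes that fell with rIFN-β (Gla, Cln3 and Lgmn) and for Mcoln1, which carries the same motif and did not pass the test.
Gla, chrX:134601164-134601255, minus strand, cores 227 and 194 bases upstream of the start: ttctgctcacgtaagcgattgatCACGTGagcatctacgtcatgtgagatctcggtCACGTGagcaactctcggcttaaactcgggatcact
Cln3, chr7:126583322-126583415, minus strand, cores 149 and 121 bases upstream of the start: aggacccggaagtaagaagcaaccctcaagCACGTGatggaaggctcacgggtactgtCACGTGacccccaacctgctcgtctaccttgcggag
Lgmn, chr12:102439106-102439171, minus strand, core 49 bases upstream of the start: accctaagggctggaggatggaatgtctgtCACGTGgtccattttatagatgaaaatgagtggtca
Mcoln1, chr8:3500418-3500509, plus strand, cores 71 and 45 bases upstream of the start: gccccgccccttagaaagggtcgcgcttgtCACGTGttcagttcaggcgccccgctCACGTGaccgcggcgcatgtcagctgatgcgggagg
The other genes with the core were Gaa, Glb1, Naglu, Sgsh, Arsa and Lamp1. Among the genes that fell with rIFN-β, the windows of Gusb, Slc11a1, Pla2g15, Acp2, Neu1 and Man2b1 did not hold these letters, which says only that they are not in those windows. A match is a run of letters, and binding was not tested.

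The libraries were checked on genes outside the list first. Granule neuron markers differed in level. The mean log2 intensity over all arrays was 12.02 for Neurod1 and 12.56 for Zic1, while 2 markers, Cbln3 and Grin2c, lay below 5. Of the 14 granule neuron markers measured none was called between the untreated genotypes or with rIFN-β in either genotype. In treated Ifnb-/- against treated or untreated Ifnb+/+, and in the averaged genotype difference, 1 was called higher (limma). Gabra6 averaged 6.63 in Ifnb-/- +IFN-b, 5.19 in Ifnb+/+ +IFN-b and 5.46 in untreated Ifnb+/+. Of 19 measured microglia and macrophage markers, Lyz2 reached a mean of 10.30, Tyrobp 8.96, C1qa 8.19 and Csf1r 7.84. Only 4, Cx3cr1, P2ry12, Tmem119 and Itgam, lay below 5, a level counted as low here. The Ifnb probe set read 2.72 ± 0.10 in untreated Ifnb+/+ and 2.70 ± 0.20 in untreated Ifnb-/- (SD, n = 3), low in both, so it checks no genotype label. Of 25 measured interferon-stimulated genes, 24 rose with rIFN-β in Ifnb+/+ and 19 in Ifnb-/-, and the median of this list lay above 0.5 on every treated array and below -1.3 on every untreated one, as log2 intensity minus each gene's mean over the 12 arrays. The median response of this list was 4.34 in Ifnb+/+ and 2.69 in Ifnb-/-, and all 25 genes were lower in treated Ifnb-/- than in treated Ifnb+/+ at an unadjusted p under 0.05, with 1 called (limma). Replicates within a group correlated at 0.971 to 0.998, lowest in untreated Ifnb+/+. Untreated Ifnb+/+ replicate 1 held the highest value of its group for 29 of the 43 lysosomal genes (67.4%, against 56.8% of all genes). Astrocyte and Bergmann glia markers summed to a linear intensity of 12420 on Ifnb+/+ +IFN-b replicate 3 and 15165 on Ifnb-/- +IFN-b replicate 2, against 5078 to 8248 on the other 10 arrays.

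**Figure D1:**
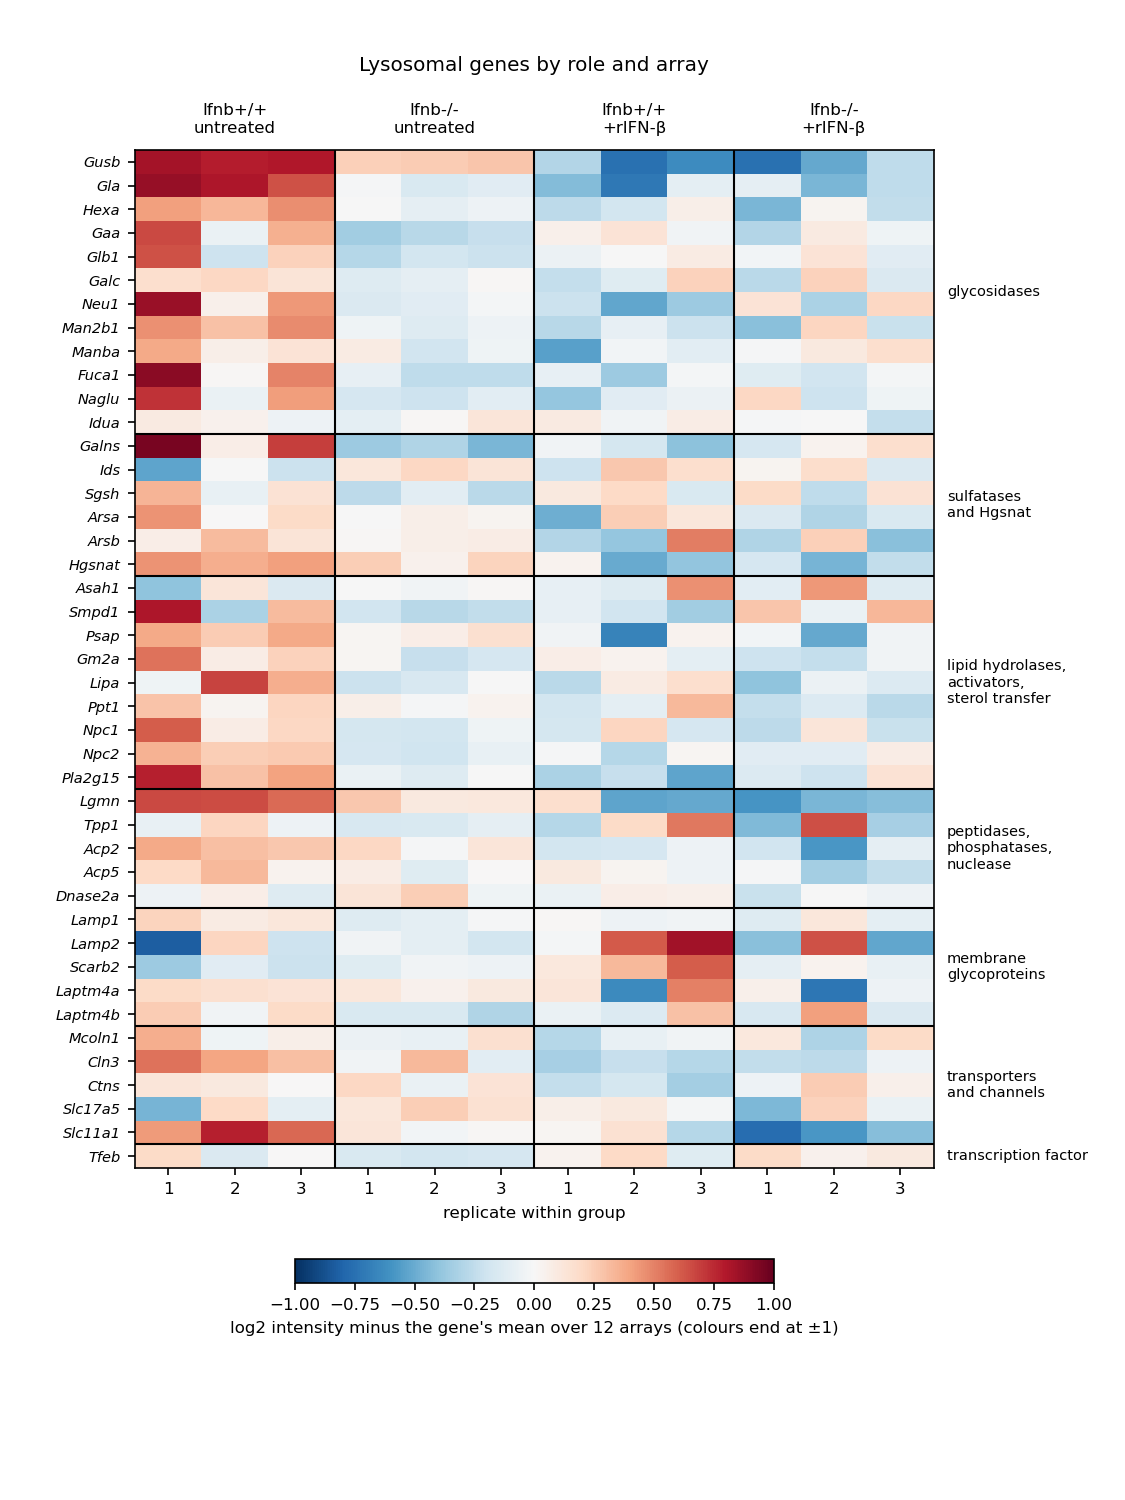
Heat map of the 43 lysosomal genes (rows, grouped by role) over the 12 arrays (columns, 3 per group). Colour is log2 intensity minus the gene's own mean over 12 arrays, red above and blue below. The untreated Ifnb+/+ columns are red for most rows, with array medians of 0.10 to 0.38, while the medians of the other 9 arrays lie between -0.14 and -0.02.

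Untreated Ifnb+/+ cultures held the highest levels of most of these genes, and the other groups lay close together. The median over the 43 genes of the log2 intensity minus the gene's mean was 0.38, 0.10 and 0.22 on the untreated Ifnb+/+ arrays. It was -0.04, -0.10 and -0.02 in untreated Ifnb-/-, -0.08, -0.10 and -0.03 in Ifnb+/+ +IFN-b, and -0.14, -0.06 and -0.10 in Ifnb-/- +IFN-b. No array of untreated Ifnb+/+ overlapped with any other group on this measure. The same median over all genes was 0.11, -0.03 and 0.01 on the untreated Ifnb+/+ arrays. On the arrays of the other groups it lay between -0.05 and 0.04, so replicate 1 of untreated Ifnb+/+ was highest for all genes too.

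The first comparison asked whether CGNs that lack Ifnb differ at rest. The genes were lower on balance in untreated Ifnb-/- than in untreated Ifnb+/+, by a median log2 fold change of -0.25 against -0.09 over all genes. Below 0 lay 36 of 43, against 11916 of all 18193 genes. No gene of the list passed the test at an adjusted p under 0.05 (limma), where 0.115% of all genes did. At an unadjusted p under 0.05, 20 of the 43 were lower and 1 was higher, against 12.8% of all genes lower. The arrays did not overlap, with Ifnb-/- lower, in 25 of 43, against 18.1% of all genes. The methods' t-test left 1 gene after Benjamini-Hochberg adjustment, and 3 at its unadjusted threshold with a 1.5-fold change, against 6 and 409 of all 18193 genes.

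Glycosidases, which cleave sugars from glycoproteins, glycolipids and glycosaminoglycans, stood lowest as a group: all 12 were below 0, 9 of them at an unadjusted p under 0.05, with a median of -0.50. Gla, α-galactosidase A, which removes galactose from glycosphingolipids, read 6.57, 6.51 and 6.34 in untreated Ifnb+/+ and 5.69, 5.55 and 5.58 in untreated Ifnb-/-. The ranges did not overlap and the difference was -0.86 (SE 0.15, adjusted p 0.0629, limma). Gusb, β-glucuronidase, which acts on glycosaminoglycans, read 7.86, 7.81 and 7.83 against 7.27, 7.28 and 7.30, a difference of -0.55 (SE 0.14, adjusted p 0.150). The groups did not overlap. Gaa, which breaks down glycogen, and Fuca1, a fucosidase, differed by -0.60 and -0.67 with adjusted p of 0.158 and 0.161.

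Outside the glycosidases, the genes with the smallest p were of mixed roles. Galns, a sulfatase of keratan and chondroitin sulfate, read 5.97, 5.09 and 5.72 in untreated Ifnb+/+ and 4.66, 4.72 and 4.57 in untreated Ifnb-/-, a difference of -0.94 (SE 0.19, adjusted p 0.0991). A second Galns probe set had the opposite sign. Npc2, which hands cholesterol to the membrane protein Npc1, differed by -0.43 (adjusted p 0.150), and Pla2g15, a lysosomal phospholipase, by -0.55 (adjusted p 0.154). Slc11a1, a metal transporter of phagocyte lysosomes, differed by -0.55 (adjusted p 0.147). The 1 gene higher at an unadjusted p under 0.05 was Ids, iduronate sulfatase, at 0.40 (adjusted p 0.208). A second, dimmer probe set for the same gene differed by 0.08, and the 6 probe sets of Ids did not all share this sign. The 5 membrane proteins had a median of -0.08 and Tfeb differed by -0.18 (adjusted p 0.360).

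The number of calls at rest changed with single arrays, and so did the size of some differences. Left out one array at a time, Gla stayed between -0.93 and -0.82 and Gusb between -0.56 and -0.54. Galns ran from -1.19 to -0.75, Fuca1 from -0.90 to -0.45 and Gaa from -0.79 to -0.43. Without Ifnb+/+ replicate 2, 16 of the 43 genes were lower and 1 was higher at an adjusted p under 0.05 (limma), in a fit that called 3846 of all 18193 genes against 21 with every array kept. Replicate 2 held the lowest value of its group for 24 of the 43 genes, against 50.8% of all genes. Without Ifnb+/+ +IFN-b replicate 2, Ifnb+/+ +IFN-b replicate 3 or Ifnb-/- +IFN-b replicate 2, which bear on this comparison through the shared variance alone, 1 gene, Gla, was lower.

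**Figure D2:**
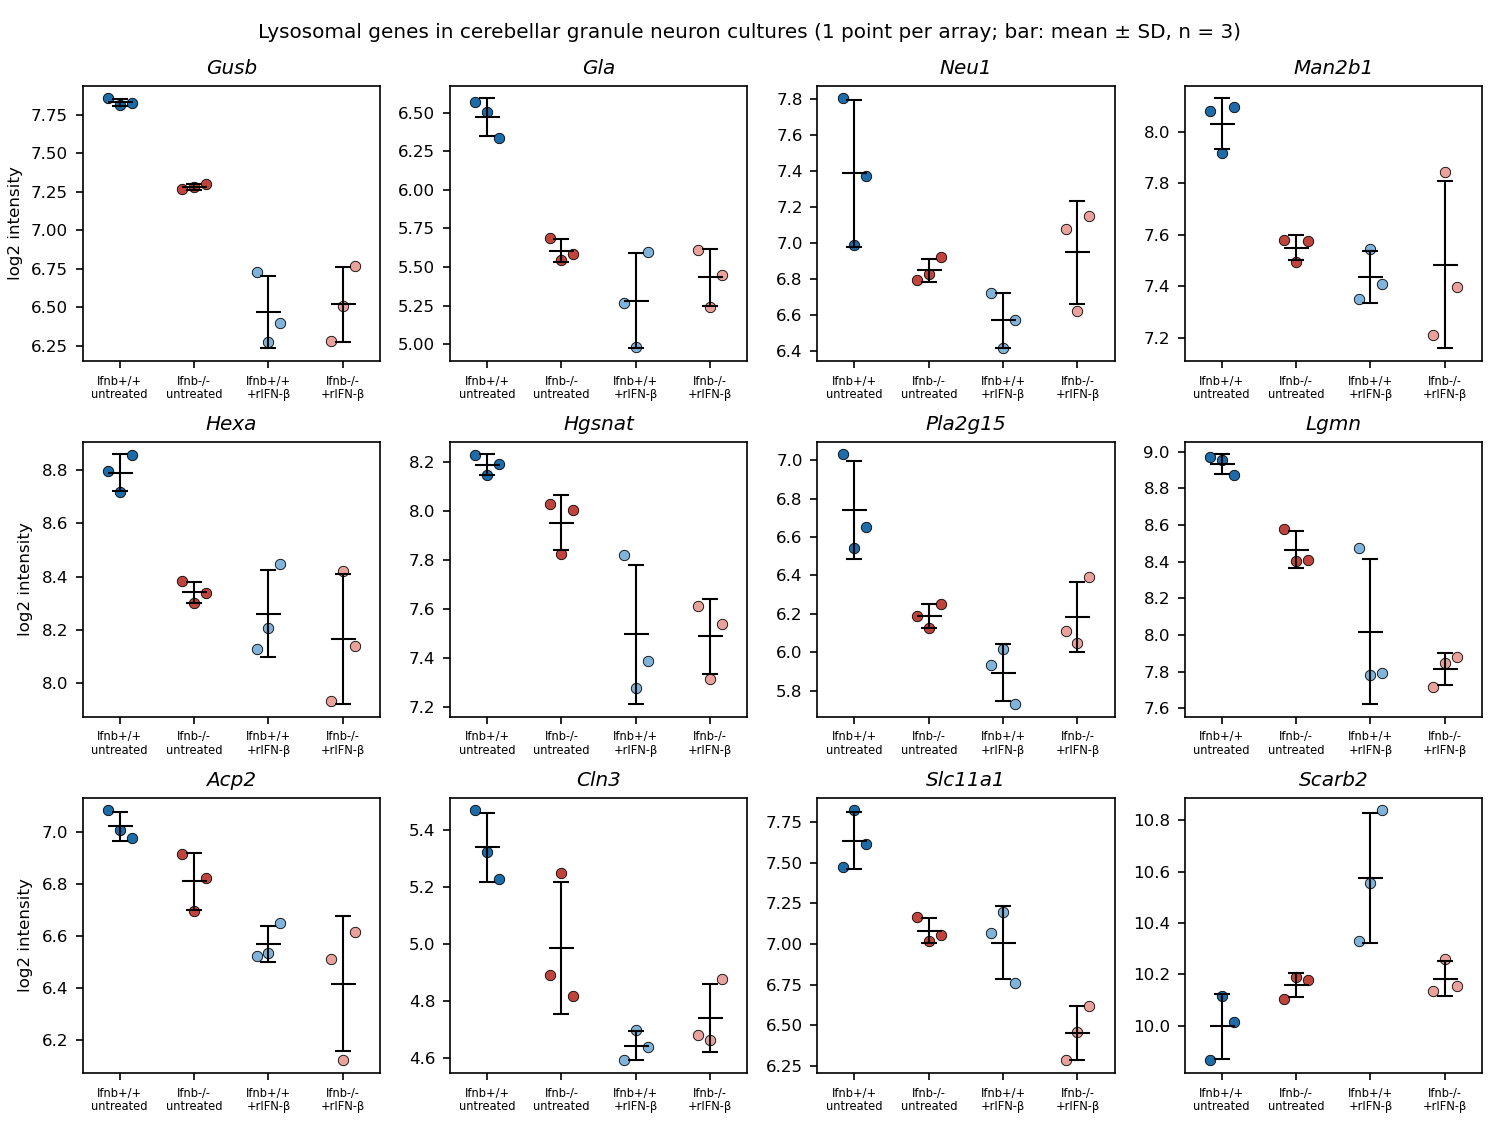
Log2 intensity of 12 named lysosomal genes, 1 panel per gene with its own y axis that does not start at 0, with 1 point per array and the mean and SD of each group of 3. In the Gusb panel untreated Ifnb+/+ lies at 7.81 to 7.86, untreated Ifnb-/- at 7.27 to 7.30 and both treated groups at 6.28 to 6.77.

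The second comparison asked which genes respond to added rIFN-β in neurons with an intact Ifnb gene. In Ifnb+/+ CGNs rIFN-β lowered 9 of the 43 genes at an adjusted p under 0.05 (limma), against 1.36% of all genes lower, and raised 1, against 1.78% of all genes higher. The median over the 43 genes was -0.28, against -0.03 over all genes, and 34 were below 0, against 10179 of all 18193 genes. At an unadjusted p under 0.05, 18 were lower, against 11.1% of all genes. Arrays did not overlap, with treated lower, in 19, against 9.28% of all genes. The untreated Ifnb+/+ arrays serve in this comparison and in the resting one, so the same high values enter both.

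Of the 12 glycosidases 4 fell, with a median of -0.54 over the group. Gusb read 6.73, 6.28 and 6.40 with rIFN-β against the 7.81 to 7.86 of untreated Ifnb+/+, with no overlap, and fell by 1.36 on the log2 scale (SE 0.14, 2.57-fold, adjusted p 0.000201). A second Gusb probe set gave -1.86. Gla read 5.26, 4.98 and 5.60 with rIFN-β, below all untreated arrays, and fell by 1.19 (SE 0.15, 2.28-fold, adjusted p 0.00107). Neu1, the sialidase that trims sialic acid, read 7.80, 6.99 and 7.37 untreated and 6.72, 6.41 and 6.57 treated, a fall of 0.82 (adjusted p 0.0436). Man2b1, α-mannosidase, fell by 0.60 (adjusted p 0.0489). Hexa, the α subunit of β-hexosaminidase, read 8.80, 8.72 and 8.85 against 8.13, 8.21 and 8.45 and did not pass, at -0.53 (adjusted p 0.0536).

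Among the other hydrolases, Lgmn, the asparaginyl endopeptidase that matures several cathepsins, read 8.97, 8.96 and 8.87 untreated and 8.47, 7.78 and 7.79 with rIFN-β. It fell by 0.92 (SE 0.16, 1.89-fold, adjusted p 0.00957), and replicate 1 of the treated group fell least. Pla2g15 read 7.03, 6.54 and 6.65 against 5.94, 6.02 and 5.73 and fell by 0.85 (SE 0.15, adjusted p 0.00716), and a second probe set gave -1.28. Hgsnat, the membrane enzyme that acetylates heparan sulfate for further breakdown, read 8.23, 8.15 and 8.19 against 7.82, 7.28 and 7.39 and fell by 0.69 (SE 0.14, adjusted p 0.0215). Psap, the precursor of the saposins that present lipids to hydrolases, was at -0.56 and did not pass (adjusted p 0.125).

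Of the 5 transporters and channels 2 fell. Cln3, a membrane protein mutated in juvenile Batten disease, read 5.47, 5.32 and 5.23 untreated and 4.59, 4.70 and 4.64 treated, near the low end of the scale, and fell by 0.70 (SE 0.13, adjusted p 0.0117). Slc11a1 read 7.47, 7.82 and 7.62 against 7.07, 7.20 and 6.76 and fell by 0.63 (SE 0.14, adjusted p 0.0327). Mcoln1, the TRPML1 calcium channel, was at -0.26 (adjusted p 0.369).

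Of the 5 membrane proteins grouped with Lamp1 none fell, 1 rose and the median was -0.11. Scarb2, LIMP-2, which carries β-glucocerebrosidase to lysosomes, read 9.87, 10.11 and 10.01 untreated and 10.33, 10.55 and 10.84 with rIFN-β and rose by 0.58 (SE 0.13, adjusted p 0.0332). It was the 1 gene of the list that rose, its second probe set differed by 0.05, and its highest value lay on the array with the high astrocyte markers. Lamp2, an abundant membrane glycoprotein, was at 0.75 (SE 0.32, adjusted p 0.228). Treated replicates 1, 2 and 3 read 8.35, 8.98 and 9.21, with astrocyte marker sums of 5078, 8248 and 12420. Untreated replicates 1, 2 and 3 read 7.55, 8.58 and 8.16, with sums of 5949, 5525 and 5554, so Lamp2 also varied where the sums were close. Lamp1 was at -0.16 (adjusted p 0.389). On both arrays high in astrocyte markers, Ifnb+/+ +IFN-b replicate 3 and Ifnb-/- +IFN-b replicate 2, 11 of the 43 genes (25.6%, against 16.3% of all genes) held the highest value of their group, Lamp2, Scarb2, Laptm4b, Tpp1 and Asah1 among them, and the part of astrocyte RNA in these values was not tested.

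Calls near the threshold depended on single arrays. Gusb, Gla, Lgmn, Cln3 and Pla2g15 stayed called without any 1 of the 12 arrays, while Neu1, Man2b1 and Scarb2 did so in 3 of 12. The count of called genes was 16 without Ifnb+/+ replicate 2, where 2905 of all genes were called against 571 with every array kept. It was 6 without Ifnb+/+ replicate 1, without any 1 untreated Ifnb-/- array or without Ifnb+/+ +IFN-b replicate 2, and 5 without Ifnb+/+ replicate 3 or Ifnb+/+ +IFN-b replicate 3. With both arrays high in astrocyte markers left out, an alternative chosen after the data were seen, 6 genes fell and none rose, and Lgmn, at -0.81, had an adjusted p of 0.0506.

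The third comparison asked the same in CGNs that lack Ifnb. In Ifnb-/- cultures rIFN-β lowered 2 of the 43 genes (limma), against 0.742% of all genes lower, and raised none, with 1 higher at an unadjusted p under 0.05. At that unadjusted threshold 5 were lower, against 5.44% of all genes, and 8 had treated arrays below all untreated ones, against 12.6% of all genes. The median was -0.01, in a comparison whose median over all genes stood at 0.07 and moved to -0.03 with each array centred on its median, which took the median of the lysosomal genes to -0.12. Below the median of all genes lay 29 of the 43.

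The genes that fell were Gusb and Slc11a1. Gusb read 6.28, 6.51 and 6.77 with rIFN-β against 7.27, 7.28 and 7.30, with no overlap, and fell by 0.76 (SE 0.14, 1.70-fold, adjusted p 0.0202). Slc11a1 read 6.28, 6.46 and 6.62 against 7.17, 7.02 and 7.06 and fell by 0.63 (SE 0.14, adjusted p 0.0489). Leaving out a single untreated Ifnb-/- array, whichever it was, or Ifnb-/- +IFN-b replicate 1 or 2, took the count to 0. It was also 0 with both arrays high in astrocyte markers left out. Without Ifnb+/+ replicate 3 or Ifnb-/- +IFN-b replicate 3 the count was 1.

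Several genes did not pass although treated and untreated Ifnb-/- arrays did not overlap. Treated arrays lay above all untreated ones in 4 of the 43 genes, against 3687 of all 18193 genes. Lgmn read 8.58, 8.40 and 8.41 untreated and 7.71, 7.85 and 7.88 with rIFN-β, at -0.65 (adjusted p 0.0756). Hgsnat was at -0.46 (adjusted p 0.153) and Acp2, lysosomal acid phosphatase, at -0.40 (adjusted p 0.181). Tfeb, on a low probe set, read 4.84, 4.81 and 4.83 untreated and 5.18, 5.04 and 5.09 with rIFN-β, at 0.28 (adjusted p 0.302), while in Ifnb+/+ it was at 0.02 (adjusted p 0.938). Gla, which fell in Ifnb+/+, was at -0.17 here (adjusted p 0.611), with 5.61, 5.24 and 5.45 treated overlapping 5.69, 5.55 and 5.58 untreated. The glycosidase median was 0.05.

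**Figure D3:**
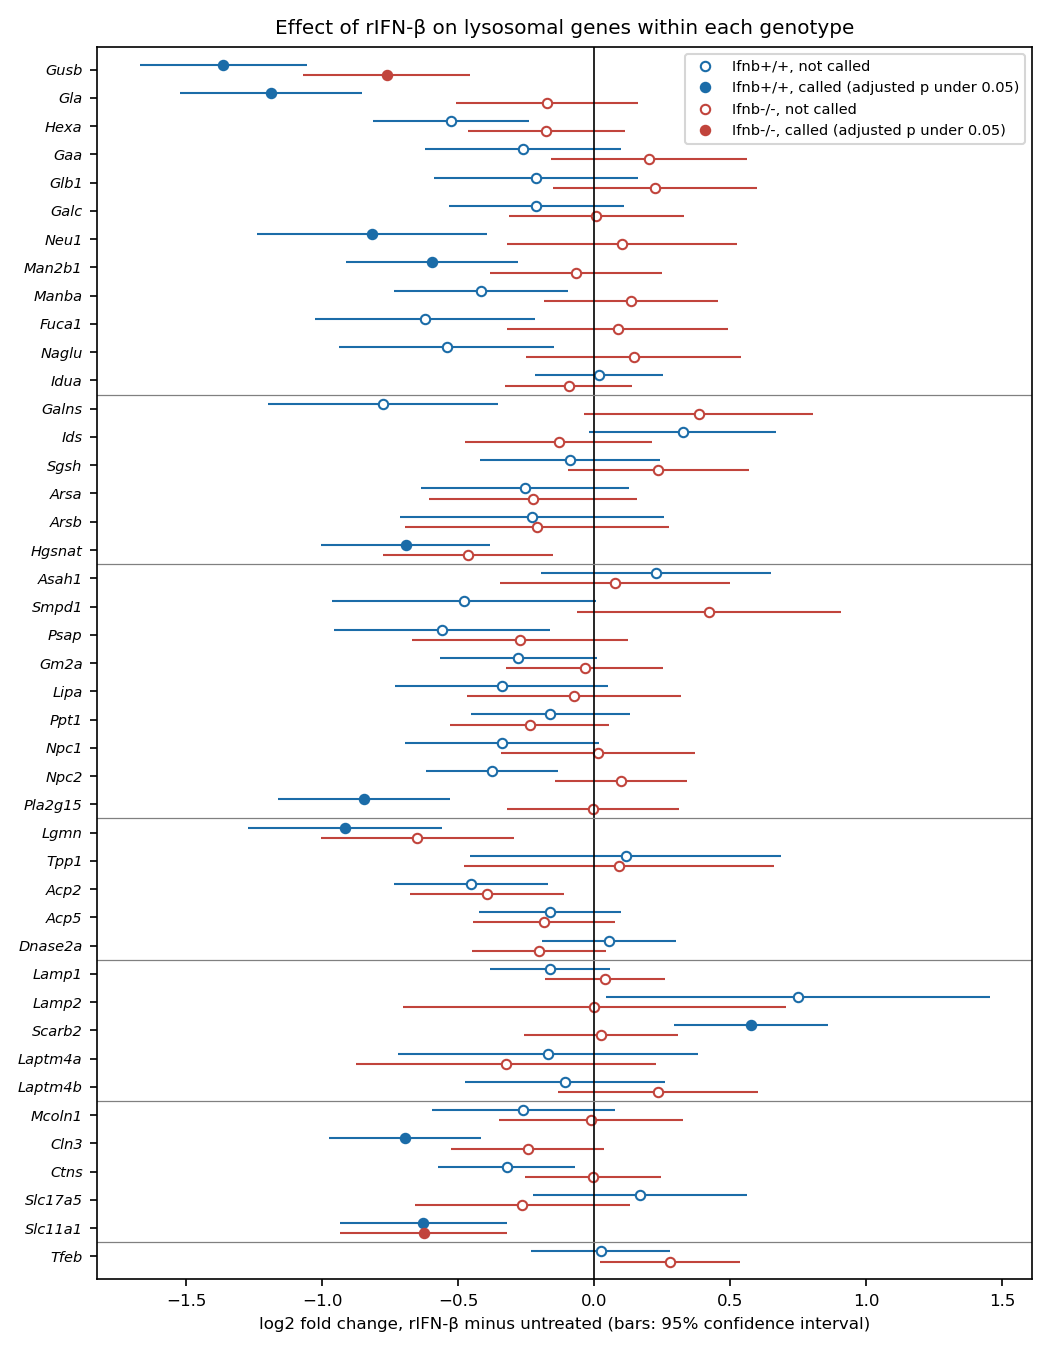
Log2 fold change with rIFN-β (x axis) for each of the 43 genes (rows, grouped by role), in Ifnb+/+ (blue) and Ifnb-/- (red), with 95% confidence intervals; filled points passed an adjusted p under 0.05. In Ifnb+/+ 10 points are filled, Gusb lowest at -1.36, and in Ifnb-/- 2 are filled, Gusb at -0.76 and Slc11a1 at -0.63.

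Whether the effect of rIFN-β differs between the genotypes was tested as an interaction. No lysosomal gene passed (limma), where 0.022% of all genes did. At an unadjusted p under 0.05, 12 of the 43 had a more positive effect in Ifnb-/- and 1 a more negative one, against 10.1% of all genes more positive. The median difference was 0.27, against 0.11 over all genes. The largest positive differences were Galns at 1.16 (SE 0.27), Gla at 1.02 (SE 0.22), Neu1 at 0.92 (SE 0.27), Smpd1, acid sphingomyelinase, at 0.90 (SE 0.32) and Pla2g15 at 0.84 (SE 0.21), each with an adjusted p of 0.323. Scarb2 was at -0.55 (SE 0.18), Gusb at 0.60 (SE 0.20) and Npc2 at 0.47 (SE 0.16), with the same adjusted p. Slc11a1 was at 0.00 (SE 0.20): it stood 0.55 lower in Ifnb-/- than in Ifnb+/+ both untreated and treated, and rIFN-β took 0.63 from each. Without Ifnb+/+ replicate 2, 7 genes passed in the positive direction, in a fit that called 1237 of all genes against 4.

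With both genotypes averaged, all 12 arrays bore on the effect of rIFN-β, and 8 of the 43 genes fell (limma), against 2.31% of all genes lower. None rose, and 1 was higher at an unadjusted p under 0.05. At that threshold 12 were lower, against 8.51% of all genes. The median was -0.16, against 0.02 over all genes, and 34 of 43 were below 0, against 8105 of all 18193 genes. Gusb fell by 1.06 (SE 0.10, adjusted p 5.35e-05), Lgmn by 0.78 (SE 0.12, adjusted p 0.00171), Gla by 0.68 (SE 0.11, adjusted p 0.00291) and Slc11a1 by 0.63 (SE 0.10, adjusted p 0.00283). The 3 probe sets of Gla did not all share this sign. Hgsnat fell by 0.58, Cln3 by 0.47, Pla2g15 by 0.43 and Acp2 by 0.42, with adjusted p of 0.00529, 0.0103, 0.0338 and 0.0194. Enzymes of glycosaminoglycan, glycolipid, phospholipid, protein and phosphate ester breakdown and 2 membrane proteins, Cln3 and Slc11a1, were among these 8. Gusb, Gla, Lgmn, Cln3, Slc11a1 and Hgsnat stayed called without any 1 of the 12 arrays. Acp2 did so in 10 of 12 and Pla2g15 in 5 of 12.

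The genotypes were also compared with rIFN-β present in both. No gene of the list passed (limma), where 0.0605% of all genes did, and at an unadjusted p under 0.05, 2 were lower in Ifnb-/- and 1 was higher, against 3.06% of all genes lower. The median was -0.02. Slc11a1 was at -0.55 (adjusted p 0.333), with no overlap between 7.07, 7.20 and 6.76 in Ifnb+/+ and 6.28, 6.46 and 6.62 in Ifnb-/-. Scarb2 was at -0.39 (adjusted p 0.638) and Ctns, the cystine exporter, at 0.34 (adjusted p 0.680). The methods' t-test left no gene at either threshold. Averaged over both treatments, the genotype difference also called none (limma), where 0.231% of all genes passed, with 13 lower and 1 higher at an unadjusted p under 0.05, against 6.05% of all genes lower. Slc11a1 came closest, at -0.55 (SE 0.10, adjusted p 0.0517), and 1 gene passed without Ifnb+/+ replicate 1, Ifnb+/+ +IFN-b replicate 1 or Ifnb+/+ +IFN-b replicate 3. Gla, Gaa, Gm2a, the GM2 ganglioside activator, Hexa, Lgmn, Galns and Lipa, acid lipase, followed at -0.27 to -0.37, with adjusted p of 0.317 to 0.480.

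Treated Ifnb-/- cultures were last set against untreated Ifnb+/+ cultures, to place rIFN-β-treated Ifnb-/- neurons beside the wild-type level. Of the 43 genes 8 were lower and none was higher (limma; none at an unadjusted p under 0.05 either), against 1.09% of all genes lower. At an unadjusted p under 0.05, 22 were lower, against 8.2% of all genes, and 19 had no overlap, against 8.5% of all genes. The median was -0.39 against -0.01 over all genes. Gusb differed by -1.31 (SE 0.14, adjusted p 0.000601), Slc11a1 by -1.18 (SE 0.14, adjusted p 0.00113), Lgmn by -1.12 (SE 0.16, adjusted p 0.00400) and Gla by -1.04 (SE 0.15, adjusted p 0.00447). Hgsnat, Hexa, Acp2 and Cln3 were at -0.70, -0.62, -0.61 and -0.60, with adjusted p of 0.0285, 0.0339, 0.0368 and 0.0374. The count was 14 without Ifnb+/+ replicate 2, where 1119 of all genes were called against 339. It was 5 without Ifnb+/+ replicate 1 or Ifnb-/- +IFN-b replicate 3, and 4 without Ifnb+/+ replicate 3, Ifnb-/- replicate 1, Ifnb-/- replicate 3 or Ifnb-/- +IFN-b replicate 1.

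Other lysosomal lists were read in the same fits. Of 41 further lysosomal hydrolases and membrane proteins measured, 6 fell with rIFN-β in Ifnb+/+ and none rose, among them Cd68, a lysosomal glycoprotein of macrophages, by 1.65 (adjusted p 0.000372), Cln8 by 0.77 (adjusted p 0.00416) and Laptm5, a lysosomal protein of leukocytes, by 0.95 (adjusted p 0.00687). In Ifnb-/-, Laptm5 fell by 0.83 (adjusted p 0.0252) and no other gene of that list passed. Cathepsins, kept out of the list of 43, fell in 5 of 13 with rIFN-β in Ifnb+/+, Ctsd by 1.13 and Ctsa by 0.86, and in 1 of 13, Ctsz, in Ifnb-/-. None of 18 vacuolar ATPase subunits, which acidify the lysosome, passed with rIFN-β in Ifnb+/+ (limma), with 9 lower and 1 higher at an unadjusted p under 0.05 and a median of -0.33. None of 29 genes of enzyme sorting and lysosome positioning passed there (limma), with 12 lower and 2 higher at that threshold and a median of -0.22. Over all genes in Ifnb+/+, 11.1% were lower and 8.81% higher at that threshold. With rIFN-β 1.36% of all genes were called lower in Ifnb+/+ and 0.742% in Ifnb-/-. Among 15 relatives of Tfeb and genes that bring TORC1 to the lysosome, Flcn, a partner of the Rag GTPases that control TFEB, fell by 0.56 (adjusted p 0.0110) and Tfe3 was at -0.43 (adjusted p 0.142).

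**Figure D4:**
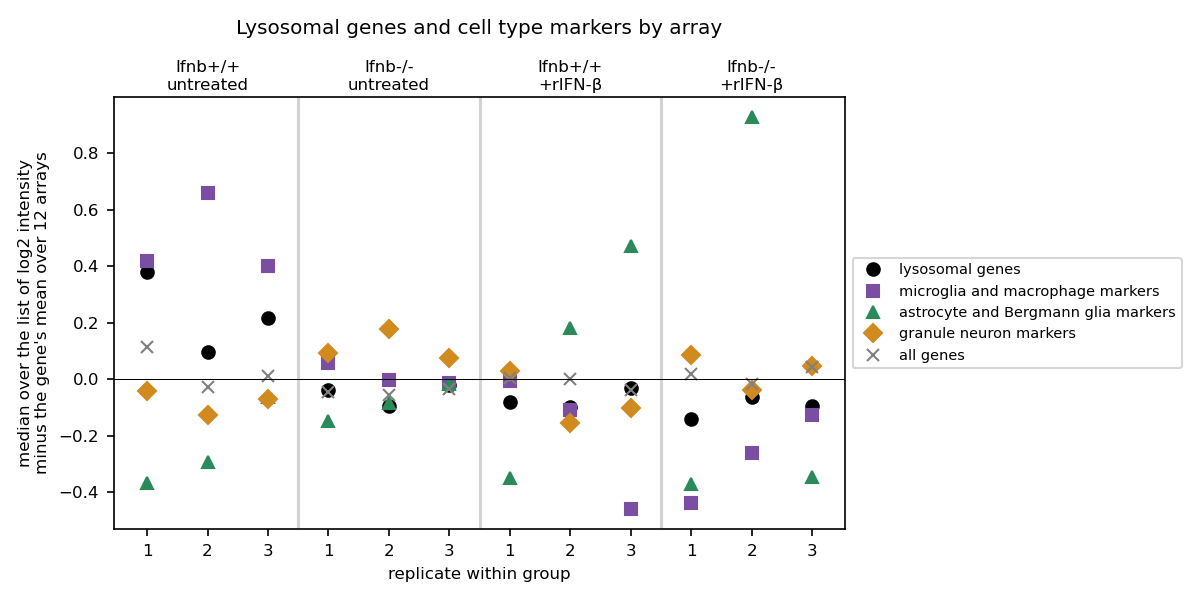
Median over each gene list of log2 intensity minus the gene's mean over 12 arrays (y axis), for each array (x axis, 3 per group). Lysosomal genes and microglia and macrophage markers are highest on the untreated Ifnb+/+ arrays, at 0.10 to 0.38 and 0.40 to 0.66. Within that group, replicate 2 is highest for the microglia and macrophage markers and lowest for the lysosomal genes. Astrocyte and Bergmann glia markers reach 0.47 and 0.93 on 1 treated array of each genotype.

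Microglia and macrophage markers were followed beside the lysosomal genes. Of 19 measured, 7 fell with rIFN-β in Ifnb+/+, led by Trem2, by 1.50 (adjusted p 8.01e-05), and C1qb, by 1.12 (adjusted p 0.00330), and 1 fell in Ifnb-/-, Cd14. In untreated Ifnb-/- 1 was lower, Trem2, at -1.03 (adjusted p 0.0164). Over all genes 1.36% and 0.742% were called lower with rIFN-β in Ifnb+/+ and Ifnb-/-, and 0.115% in either direction between the untreated genotypes. The median over the markers was -0.54 with rIFN-β in Ifnb+/+, -0.38 in Ifnb-/- and -0.25 between the untreated genotypes, beside -0.28, -0.01 and -0.25 over the 43 lysosomal genes. Their summed linear intensity was 4129 to 5871 in untreated Ifnb+/+, 3946 to 4485 in untreated Ifnb-/-, 2470 to 3579 in Ifnb+/+ +IFN-b and 2576 to 3023 in Ifnb-/- +IFN-b. The treated ranges lay below the untreated ones in both genotypes. The part of microglial RNA in the falls of Gusb, Lgmn, Slc11a1 and the other hydrolases was not tested, and fewer cells of a type cannot be told apart from less RNA per cell in these cultures. Granule neuron markers had medians of 0.03 and -0.05 with rIFN-β in Ifnb+/+ and Ifnb-/-, and 0.13 between the untreated genotypes. Their summed linear intensity was 18791 to 20765 in untreated Ifnb+/+ and 23174 to 25261 in untreated Ifnb-/-, without overlap. At an unadjusted p under 0.05, 4 of 14 were higher in untreated Ifnb-/-, against 8.40% of all genes. The part of this shift in the resting differences of the lysosomal genes was not tested.

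Probe sets of a gene did not always move together. Of the 43 genes 26 had several. The sign of the rIFN-β effect differed between probe sets in 7 for Ifnb+/+, 11 for Ifnb-/- and 10 for both genotypes averaged. The sign of the difference between the untreated genotypes did so in 11. Galns was among them in Ifnb+/+, in the average and between the untreated genotypes. Gla was among them in Ifnb-/- and in the average. Lamp2 in Ifnb-/- read 0.00 on the probe set used and -0.96 on another, and Ids -0.13 against -0.69, -0.89 and -0.97. Sgsh, Cln3, Ctns, Acp5 and Tfeb had a mean log2 intensity under 5.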

How the data were processed

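Total RNA of 12 CGN cultures was hybridised to Affymetrix whole-genome mouse arrays. The deposited values are log2 intensities that the authors quantile-normalized and summarised by RMA in Arraystar 3. Of 45037 probe sets, 34945 named 1 gene, 932 several and 9160 none in the platform annotation. Each of 18193 genes was read from the probe set brightest on average over the 12 arrays. Array number limits the precision.

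All 4 groups entered 1 linear model without covariates (limma 3.58.1, R 4.3.3), with comparisons as contrasts and p-values adjusted by Benjamini-Hochberg over all genes. A gene was called at an adjusted p under 0.05. The methods' t-test was run on the same values. Named genes were those called and, where fewer were called, those with the smallest unadjusted p under 0.05, up to 8 per comparison. Hexa, Psap, Ids, Mcoln1, Lamp1 and Lamp2 were added after their values were seen. The fit was tested on simulated data. The members and lists were chosen with earlier results of these data known. Alternatives were averaging a gene's probe sets, probe sets naming several genes, a filter on mean log2 under 5, renormalization, centring, array weights, trended variance, the compared groups alone, a replicate block and leaving out each array. Promoter windows of 300 bases came from RefSeq (GRCm38.p6) and covered 39 of the 44 listed genes.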

Additional observations from a re-analysis of the deposited data

Results flagged for a closer look

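No lysosomal gene of the list met a criterion for a closer look. A cathepsin did, since the effect of rIFN-β on Ctsd differed between the genotypes by 1.07 (SE 0.15, adjusted p 0.0414, limma interaction), with -1.13 in Ifnb+/+ and -0.06 in Ifnb-/-. The microglia marker Trem2 differed in the same test by 1.73 (SE 0.20, adjusted p 0.0120), with -1.50 in Ifnb+/+ and 0.23 in Ifnb-/-.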

How the results depend on the processing

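In the alternative runs 1105 of the single-gene values stayed on their side of the threshold, 146 lost it, 53 gained it and 0 reversed. Trended variance, the compared groups alone, the replicate block, the filter and the t-test leave the fold change as it is. The named genes were also picked on these values, so the absence of reversals is no test of direction. The counts of called lysosomal genes moved more. With array weights they were 29 between untreated genotypes, 19 with rIFN-β in Ifnb+/+, 10 in Ifnb-/-, 1 between treated genotypes, 13 for the interaction, 25 for treated Ifnb-/- against untreated Ifnb+/+, 15 for the averaged rIFN-β effect and 6 for the averaged genotype effect, against 0, 10, 2, 0, 0, 8, 8 and 0. Array weights also raised the calls over all 18193 genes, to 7964, 3295, 3962, 209, 4103, 3869, 3060 and 986 in the same order, from 21, 571, 304, 11, 4, 339, 880 and 42. Fits on the compared groups alone called 2 in Ifnb+/+, 4 in Ifnb-/- and 4 for treated Ifnb-/- against untreated Ifnb+/+. After Benjamini-Hochberg the methods' t-test called 1 between untreated genotypes and 0 for each of those other contrasts, where it called 0, 334 and 0 of all genes, and 3 between untreated genotypes at 1.5-fold without adjustment. Averaging each gene's probe sets gave 1 between untreated genotypes, 1 in Ifnb-/- and 1 for the averaged genotype effect, as did probe sets naming several genes for the last (1). In Ifnb-/- the count was 1 with renormalization, 1 with trended variance and 1 with a replicate block. Without both arrays high in astrocyte markers, chosen after seeing the data, it was 1 between untreated genotypes, 6 in Ifnb+/+ and 0 in Ifnb-/-. Leaving out 1 array gave 0 to 17 between untreated genotypes, 5 to 16 in Ifnb+/+, 0 to 2 in Ifnb-/-, 0 between treated genotypes, 0 to 7 for the interaction, 4 to 14 for treated Ifnb-/- against untreated Ifnb+/+, 6 to 10 for the averaged rIFN-β effect and 0 to 1 for the averaged genotype effect. The cause was not tested. Deviations of same-numbered arrays from their group means correlated at -0.50 to 0.43 (18 correlations, 5 of them over 0.1). Differently numbered arrays were not compared, so these values do not decide whether the numbers pair the cultures. The replicate block called 0, 11, 1, 0, 0, 7, 9 and 0 in the order given for array weights. The number of arrays, 3 a group, limits the precision.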

Other observations

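Markers of other cell types were read in the same fits. Of 10 measured oligodendrocyte lineage genes, 1 fell with rIFN-β in Ifnb-/-, Mobp, by 1.16, and none was called in Ifnb+/+ (limma), where 1 was lower at an unadjusted p under 0.05. None of 11 astrocyte and Bergmann glia, 7 endothelial, 8 meningeal and pericyte, 5 Purkinje cell and interneuron or 2 erythroid markers was called with rIFN-β in either genotype or between the untreated genotypes (limma). At an unadjusted p under 0.05 with rIFN-β in Ifnb+/+ these lists held 1, 1, 2, 0 and 1 genes. Over all genes 11.1% were lower and 8.81% higher there. The 7 endothelial genes had a mean log2 intensity under 5.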
